A study of Mus musculus with 6 samples.

Results

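The transcripts of 10 genes of lysophospholipid signaling were examined in osteoclast precursors: the lysophosphatidic acid (LPA) receptors *Lpar1*, *Lpar2*, *Lpar5* and *Lpar6*, the sphingosine-1-phosphate (S1P) receptors *S1pr1* to *S1pr4*, and the sphingosine kinases *Sphk1* and *Sphk2*. They were taken by symbol from the 24346 genes of the deposited tables, and all 10 were found. *Lpar6* heads the set because an earlier analysis of these same values had placed it among the few genes past an adjusted threshold, so the comparison of JAK inhibitor with vehicle is given for these 10 genes as a description and no test is read from it. All 6 mice were CX3CR1-EGFP knock-in mice, in which the Cx3cr1 promoter drives a green reporter in cells of the monocyte lineage, and all had lipopolysaccharide (LPS, 20 mg/kg) injected into the calvarial periosteum. From that day, 3 mice received the JAK1-selective inhibitor ABT-317 by mouth (JAKi, 60 mg/kg, 2 doses per day for 5 days), and the other 3 received vehicle. EGFP+ bone marrow cells were then sorted from the calvaria of each mouse for RNA-Seq. The age of these mice and the number of reporter alleles are not given in the sources used here, and no mice without LPS were analyzed here. The sort takes any cell in which the promoter is or was recently active.

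LPA and S1P are small lipids that act outside the cell through G protein-coupled receptors. LPAR1 and LPAR2 belong, with the S1P receptors, to the EDG family, whereas LPAR5 and LPAR6 belong to the family of P2Y-like receptors. S1P is made inside cells by the sphingosine kinases, carried out by transporters, and kept high in blood and low in tissue, so that cells with S1PR1 move toward blood and S1PR2 opposes that movement. In osteoclast precursors, this gradient is known to set the balance between circulation and the bone surface. S1PR4 is found mainly on hematopoietic cells, S1PR3 couples to several G proteins, and S1PR5 is known from natural killer cells and patrolling monocytes.

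*Lpar6* lies on chromosome 14 (73237895 to 73243294, plus strand, GENCODE M21 on GRCm38), as 1 exon within intron 17 of *Rb1*, the retinoblastoma gene, which is read from the minus strand. Exons of *Rb1* transcripts other than the longest share 408 bases with it, summed over those transcripts. The RefSeq window of 250 bases before to 50 bases after its start (GRCm38.p6, chr14:73237641-73237940, plus strand) is shown because *Lpar6* is the gene on which the comparison turns. Promoters were searched on both strands for the STAT motif TTCNNNGAA, the PU.1 motif GAGGAAGT and an interferon response motif (GAAA, any 2 bases, GAAA), which stand for factors of JAK signaling and of the myeloid lineage, and a match is printed in capitals. N is any base. The window of *Sphk1* (chr11:116531587-116531886, plus strand) is shown because *Sphk1* was the only 1 of the 9 genes with a window in the table to hold a match, in 2 overlapping windows that share it.

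Lpar6: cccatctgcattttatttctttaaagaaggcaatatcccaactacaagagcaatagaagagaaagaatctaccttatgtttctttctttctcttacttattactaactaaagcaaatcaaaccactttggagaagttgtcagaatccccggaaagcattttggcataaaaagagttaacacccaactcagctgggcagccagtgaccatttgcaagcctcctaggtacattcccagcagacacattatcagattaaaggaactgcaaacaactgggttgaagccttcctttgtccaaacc

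Sphk1: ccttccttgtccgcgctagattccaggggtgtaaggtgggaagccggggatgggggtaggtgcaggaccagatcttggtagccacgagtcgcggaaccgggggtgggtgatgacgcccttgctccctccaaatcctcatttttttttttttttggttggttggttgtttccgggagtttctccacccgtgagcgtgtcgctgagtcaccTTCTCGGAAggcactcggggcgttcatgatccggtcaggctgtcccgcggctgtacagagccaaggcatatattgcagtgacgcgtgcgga

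The *Lpar6* window held none of the 3 motifs. In *Sphk1*, the gene of the kinase that is induced by growth factors and cytokines, the STAT motif begins 41 bases before the start of this window's transcript. Of 32851 windows of this length in the same table, 8.30% held the STAT motif, 3.44% the interferon motif and 3.20% the PU.1 motif. These are matches of letters, not measured binding sites.

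The sum of FPKM (fragments scaled to transcript length and library size, the unit of the deposited values) ranged from 688372 to 775790 per library, and 10361 to 10439 genes reached 1 FPKM. Each library correlated with the others of its group at a mean r of 0.974 to 0.982 on log2(FPKM + 1), lowest in vehicle-treated mouse 3. All 8 monocyte markers passed the filter used below, with *Csf1r* at 386 ± 33.7 (SD, n = 3) FPKM with JAK inhibitor and 396 ± 33.2 (SD, n = 3) with vehicle. Of these 8, 3 were higher and 5 lower with JAK inhibitor, and 0 had an adjusted p under 0.05 in limma. At an unadjusted p under 0.05 were 2, *Fcgr1* and *Itgam*, both lower, against 16% of all tested genes. *Fcgr1* was at 3.14 ± 0.374 (SD, n = 3) FPKM with JAK inhibitor and 8.50 ± 3.17 (SD, n = 3) with vehicle, without overlap. Granulocyte progenitor genes were also abundant, *Mpo* being the 8th and *Elane* the 16th gene by mean FPKM. The 5 B cell markers summed to 27.5 to 35.7 FPKM, nearly all of it *Cd79b*, and *Ms4a1* and *Pax5* of that list were listed at 0 in every mouse, as was *Calcr*, a gene of mature osteoclasts.

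*Lpar6* had the highest level of the 10 genes in every mouse but vehicle-treated mouse 3. In mice 1 to 3 given JAK inhibitor it was at 39.92, 39.68 and 40.05 FPKM, and in mice 1 to 3 given vehicle it was at 20.9, 20.2 and 16.4. Every JAK inhibitor-treated mouse thus lay well above every vehicle-treated mouse, and the 3 treated mice were nearly equal. The coefficient of variation was 0.473% with JAK inhibitor, against a median of 9.24% over 3113 genes of similar level, of which 0.193% varied less. With vehicle it was 12.6%, near the median of 11.2% for the same genes. The adjusted p that placed *Lpar6* in this set depends on this same spread, so its rank by variation is a description. The group means were 39.9 ± 0.189 (SD, n = 3) and 19.2 ± 2.42 (SD, n = 3), a ratio of 2.08, and the difference in log2(FPKM + 1) was 1.03 with a standard error of 0.12. The value that placed the gene in this set was its adjusted p of 0.0189 in limma over 11301 genes, which is repeated here as a description. It is 1 of 4 genes higher with JAK inhibitor at this threshold, which is 0.0354% of the genes tested. The difference ranged from 0.92 to 1.09 over 14 other ways of processing, but the adjusted p was 0.136 to 0.190 when any 1 of the JAK inhibitor-treated mice was left out and 0.0555 without vehicle-treated mouse 1.

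Because *Lpar6* sits inside an intron of *Rb1*, reads of unspliced *Rb1* RNA there, and reads in the shared exon bases, can be told apart from those of *Lpar6* only by strand. The sample labels name a kit that does not mark strand, the methods name a stranded kit, and strand use in counting is not given in the sources used here. *Rb1* was at 14.4, 13.2 and 15.3 FPKM in the JAK inhibitor-treated mice and at 13.7, 12.7 and 10.2 in the vehicle-treated mice, so its groups overlapped. Its log2 difference of 0.22 (standard error 0.14, adjusted p = 0.498 in limma) was smaller than that of *Lpar6*, and was 0.10 without vehicle-treated mouse 3. The FPKM of *Rb1* gives no separate value for unspliced RNA, and the part of such reads in the *Lpar6* values was not tested. The neighboring genes *Itm2b* and *Rcbtb2* had log2 differences of 0.07 (standard error 0.09) and 0.25 (standard error 0.14), neither past the threshold.

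The sums of some cell type markers in the sorted cells also separated the groups. The 5 granulocyte progenitor markers summed to 12305 to 13270 FPKM with JAK inhibitor and to 5394 to 9879 with vehicle, with vehicle-treated mouse 3 again the lowest. Of these 5, *Mpo*, *Elane* and *Prtn3* were higher in all treated mice, *Ms4a3* was lower in all, *Ctsg* overlapped, and 0 passed the adjusted threshold in limma, with 4 at an unadjusted p under 0.05, as were 16% of all tested genes. *Elane*, which encodes neutrophil elastase, had means of 3880 ± 156 (SD, n = 3) and 1924 ± 800 (SD, n = 3). In the other direction, the 8 macrophage markers summed to 69.9 to 167 FPKM with JAK inhibitor and 191 to 357 with vehicle. Of the 7 tested, 6 were lower and *Vcam1* was higher, with 0 past the adjusted threshold. *C1qb* and *Mertk* lay wholly below vehicle, as did 12.1% of all tested genes, and the others overlapped. The 6 osteoclast markers summed to 107 to 112 FPKM with JAK inhibitor and 166 to 576 with vehicle. All 5 tested lay wholly below vehicle, as did 12.1% of all tested genes, with a median log2 difference of -1.73. In limma, 5 had an unadjusted p under 0.05, against 16% of all tested genes, and 0 passed the adjusted threshold. Of 7 tested mature neutrophil markers, 2 were higher and 5 lower with JAK inhibitor, with 0 past the adjusted threshold. *Camp* and *Csf3r* lay wholly above vehicle and *Mmp8* and *Cxcr2* wholly below, against 9.92% and 12.1% of all tested genes. The 5 platelet markers summed to 9.1 to 24.6 FPKM with JAK inhibitor and 24.2 to 57.1 with vehicle, so these sums overlapped. The 9 T and NK cell markers in the tables summed to 491 to 573 FPKM with JAK inhibitor and 204 to 373 with vehicle. Nearly all of this was *Nkg7*, which gave 489 to 557 and 167 to 363. Of the 6 tested T and NK cell markers, 3 were higher and 3 lower, with 0 past the adjusted threshold. The sums of the 6 dendritic cell markers (323 to 355 against 181 to 304) and of the 5 erythroid markers in the tables (6.15 to 53.7 against at most 3.13) were also higher in every treated mouse. Of the 5 tested dendritic cell markers, 2 were higher and 3 lower. In such bulk samples, more cells of a type and more RNA per cell cannot be told apart, and the part of these cell markers in the *Lpar6* values was not tested.

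**Figure D1:**
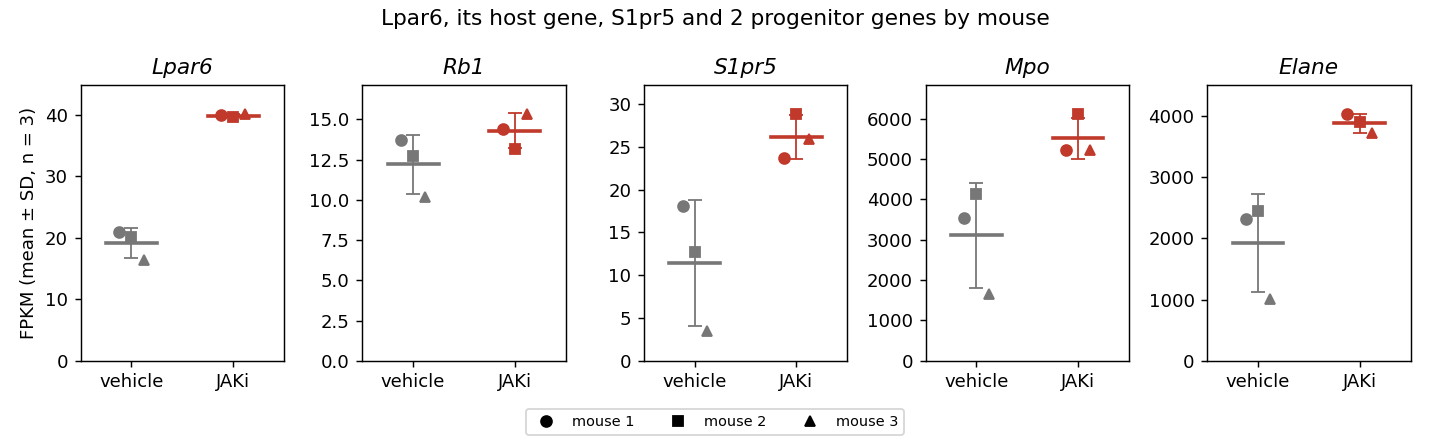
FPKM of *Lpar6*, its host gene *Rb1*, the S1P receptor gene *S1pr5* and the progenitor genes *Mpo* and *Elane* in 3 vehicle-treated and 3 JAK inhibitor-treated (JAKi) mice; each symbol is 1 mouse, thick lines are means, bars are SD, and each vertical axis starts at 0. *Lpar6* separates at 16.4 to 20.9 against 39.68 to 40.05, *Rb1* overlaps, and vehicle-treated mouse 3 is the lowest in all 5 panels.

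*Lpar5*, the other P2Y-like LPA receptor gene with a measurable level, was also higher with JAK inhibitor. Its FPKM was 6.22, 6.62 and 7.01 in the JAK inhibitor-treated mice and 5.59, 2.39 and 3.19 in the vehicle-treated mice. The groups did not overlap, although vehicle-treated mouse 1 came close to the treated mice. The log2 difference was 0.74 (standard error 0.24). *Lpar1* stayed at or below 0.0980 FPKM and *Lpar2* at or below 0.112 in every mouse, so neither passed the filter of 1 FPKM in at least 1 mouse and no difference is given. *Lpar3* and *Lpar4*, the remaining LPA receptor genes, did not exceed 0.597 and 0.186. *Lpar6* therefore made up most of the LPA receptor transcripts per length, 85.0% to 86.3% of the summed FPKM of the 6 receptor genes in treated mice and 77.7% to 89.3% in vehicle-treated mice. The sum itself was 46.7 ± 0.449 (SD, n = 3) with JAK inhibitor and 23.3 ± 3.32 (SD, n = 3) with vehicle. As most of the sum is *Lpar6*, which was chosen by this contrast, this difference largely restates that of *Lpar6*. The shares of *Lpar6* overlapped between the groups.

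**Figure D2:**
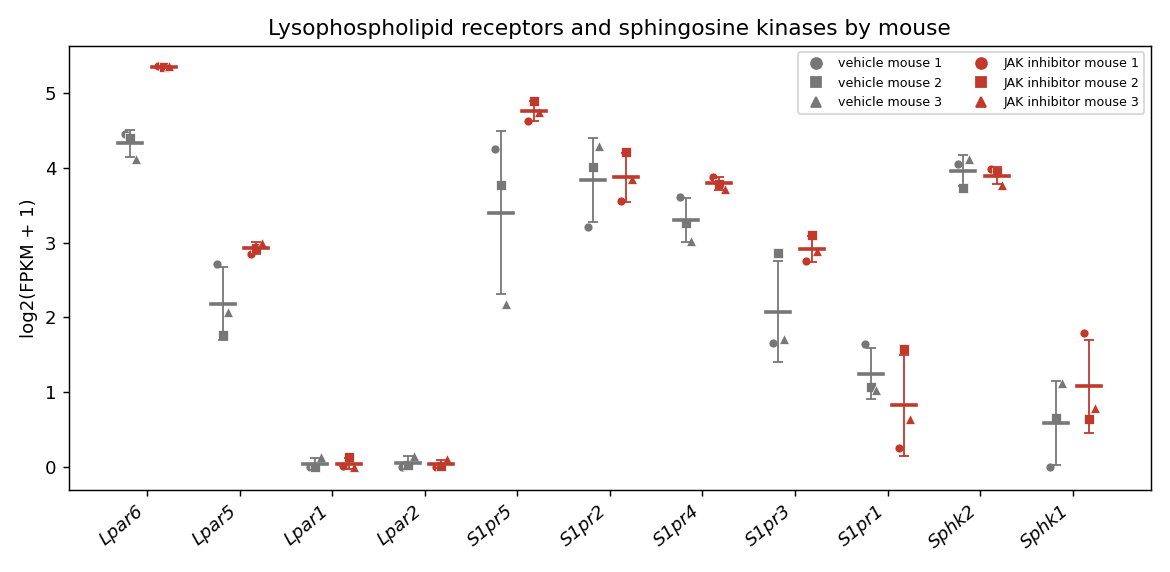
Level of each gene in log2(FPKM + 1) by mouse, with gray for vehicle and red for JAK inhibitor; thick lines are means and bars are SD of 3 mice. *Lpar6* stands highest and its groups are farthest from overlap, while *Lpar1* and *Lpar2* lie near 0 in both groups.

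Among the S1P receptors, *S1pr4* was higher with JAK inhibitor, at 13.7, 12.8 and 12.1 FPKM against 11.2, 8.57 and 7.15 with vehicle. Its groups were adjacent but did not overlap, and the log2 difference was 0.49 (standard error 0.17). *S1pr3* was at 5.77, 7.62 and 6.38 FPKM in treated mice and at 2.17, 6.25 and 2.29 in vehicle-treated mice. Vehicle-treated mouse 2 lay inside the treated range, so the groups overlapped, with a log2 difference of 0.84 (standard error 0.31). *S1pr2*, the receptor that opposes movement toward S1P, was at 10.8, 17.4 and 13.4 FPKM with JAK inhibitor and 8.26, 15.2 and 18.6 with vehicle. The means of 13.9 ± 3.36 (SD, n = 3) and 14.0 ± 5.26 (SD, n = 3) were nearly the same, although the mice differed among themselves. *S1pr1*, the receptor of movement toward blood, was low, at 0.195, 1.98 and 0.560 FPKM with JAK inhibitor and 2.12, 1.11 and 1.04 with vehicle. JAK inhibitor-treated mouse 2 lay among the vehicle-treated mice, and the others lay below them. The ratio of *S1pr2* to *S1pr1* transcripts thus rested on values of *S1pr1* too low to be precise, and none is given.

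*S1pr5*, which is not among the 10 genes, was taken from a list of 8 further lysophospholipid receptor genes for comparison. It had the highest level of the S1P receptors in treated mice, at 23.7, 28.8 and 26.0 FPKM, against 18.05, 12.7 and 3.52 with vehicle. The groups did not overlap, and vehicle-treated mouse 3 stood far below the others. The log2 difference was 1.36 (standard error 0.44, adjusted p = 0.191 in limma), which did not pass the threshold, and 0.75 (standard error 0.17, adjusted p = 0.154) without vehicle-treated mouse 3. Of the other 7 genes of the list, 3 passed the filter: *Gpr34*, a receptor for lysophosphatidylserine, with a log2 difference of -0.13 (standard error 0.20), *Gpr132*, a receptor for oxidized fatty acids, with 0.10 (standard error 0.27), and *P2ry10* with -0.43 (standard error 0.25). None of the 4 tested genes passed the adjusted threshold in limma, and 1, *S1pr5*, had an unadjusted p under 0.05, against 16% of all tested genes.

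The make-up of the S1P receptor transcripts differed most between vehicle-treated mice. *S1pr5* took 43.8%, 41.9% and 44.4% of the summed FPKM of the 5 S1P receptors in JAK inhibitor-treated mice. In vehicle-treated mice 1 to 3 it took 43.2%, 29.0% and 10.8%, whereas *S1pr2* took 19.7%, 34.6% and 57.1%. Vehicle-treated mouse 1 was thus close to the treated mice in these 2 shares, though not in those of *S1pr3* (5.18% against 10.7% to 11.1%) and *S1pr1* (5.06% against 0.361% to 2.89%), and *S1pr2* had the largest share in mice 2 and 3. *S1pr4* varied little, with 18.7% to 26.9% over all 6 mice. The summed FPKM was 60.4 ± 7.49 (SD, n = 3) with JAK inhibitor and 39.4 ± 5.96 (SD, n = 3) with vehicle, and its groups did not overlap.

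**Figure D3:**
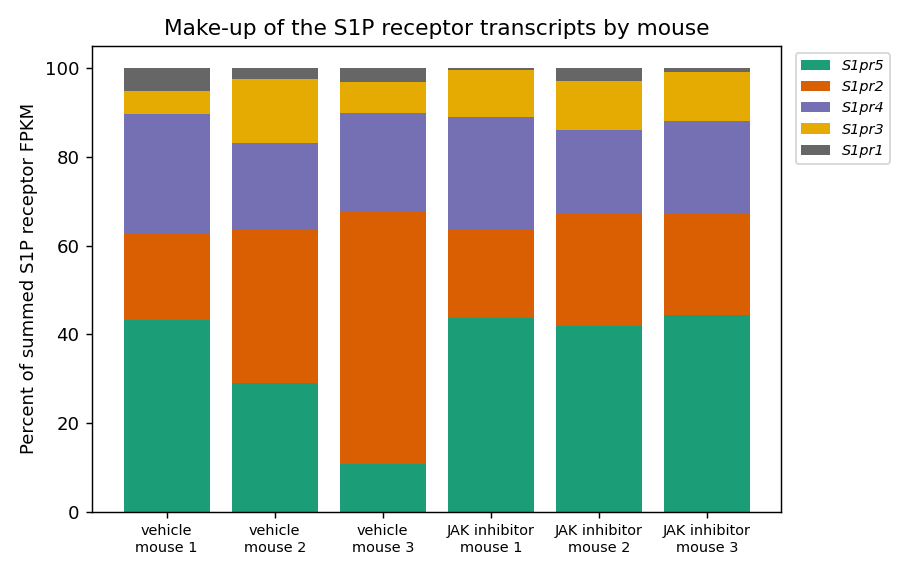
Percent of the summed FPKM of the 5 S1P receptor genes taken by each gene in each mouse. The 3 JAK inhibitor-treated mice are alike, with *S1pr5* at 41.9% to 44.4%, while in vehicle-treated mouse 3 *S1pr2* takes 57.1%.

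The sphingosine kinases did not separate the groups. *Sphk2*, the nuclear and mitochondrial isoform, was at 14.8, 14.3 and 12.6 FPKM with JAK inhibitor and 15.5, 12.3 and 16.3 with vehicle, a log2 difference of -0.07 (standard error 0.14). The vehicle-treated mice spanned the whole range of the treated mice. *Sphk1* was low, at 2.46, 0.565 and 0.734 FPKM with JAK inhibitor and 0.580 and 1.17 in vehicle-treated mice 2 and 3, and it was listed at 0 in vehicle-treated mouse 1. Its log2 difference of 0.48 (standard error 0.38) rested on single mice, as leaving out JAK inhibitor-treated mouse 1 gave 0.13 and leaving out vehicle-treated mouse 1 gave 0.19. *Sphk2* overlaps *Rpl18*, a ribosomal protein gene on the opposite strand at 891 to 1066 FPKM, by 2546 bases, and *Sphk1* overlaps an antisense gene, so reads without strand could be shared in either case.

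Of the 10 genes, 8 passed the filter, and 6 of the 8 had a higher mean of log2(FPKM + 1) with JAK inhibitor. Over all 11301 tested genes this was so for 49.4%. The median log2 difference was 0.49 over the 8 genes and 0.48 without *Lpar6*, against -0.0035 over all tested genes. Groups that did not overlap, with JAK inhibitor above, were found for 3 of the 8, *Lpar6*, *Lpar5* and *S1pr4*, and for 9.92% of all tested genes. None of the 8 lay wholly below vehicle, against 12.1% of all genes, and 22% of all genes separated in either direction. Since the genes were gathered with this contrast known, these counts are a description.

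**Figure D4:**
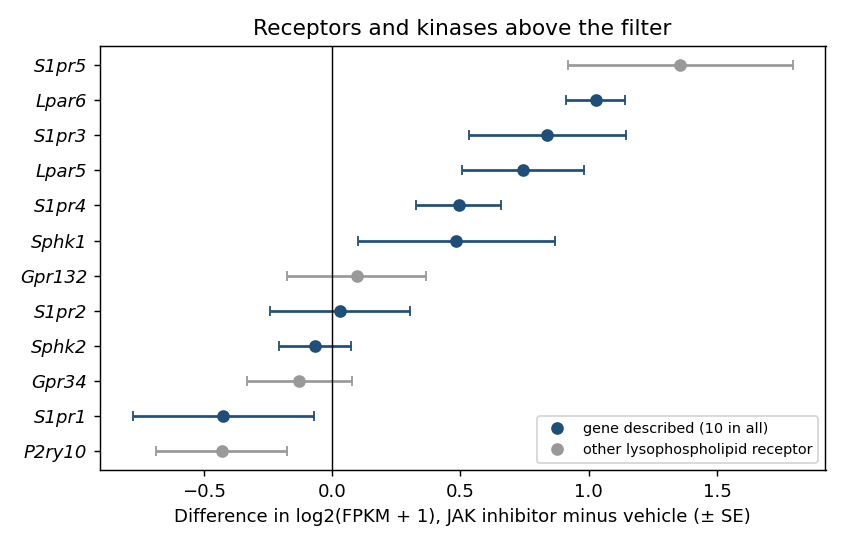
Difference in mean log2(FPKM + 1), JAK inhibitor minus vehicle, for the receptor and kinase genes above the filter; bars are standard errors from limma. *Lpar6* has the smallest error, and *S1pr5* has both the largest difference and the largest error.

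Set against each other receptor within the same mouse, *Lpar6* differed unevenly. The log2 gap between *Lpar6* and *S1pr4* was 1.56 ± 0.0848 (SD, n = 3) with JAK inhibitor and 1.03 ± 0.162 (SD, n = 3) with vehicle, without overlap. The gaps to *Lpar1*, *Lpar2* and *S1pr1* did not overlap either, but these genes were too low for their part in the gap to be precise. The gaps to *Lpar5* (2.43 and 2.14), *S1pr3* (2.44 and 2.25), *S1pr2* (1.48 and 0.49) and *S1pr5* (0.60 and 0.93) overlapped between the groups. Among the receptors with a mean above 5 FPKM, the gap thus separated the groups for *S1pr4* alone.

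In order of mean FPKM over the 6 mice, *Lpar6* (29.5 ± 11.4, SD) was followed by *Sphk2* (14.3 ± 1.59), *S1pr2* (13.9 ± 3.95), *S1pr4* (10.9 ± 2.55), *Lpar5* (5.17 ± 1.92), *S1pr3* (5.08 ± 2.29), *S1pr1* (1.17 ± 0.762), *Sphk1* (0.919 ± 0.843), *Lpar2* and *Lpar1*. The step from a gene to the next was larger than its SD over mice after *Lpar6*, *S1pr4*, *S1pr3* and *Sphk1*. The neighboring pairs *Sphk2* and *S1pr2*, *S1pr2* and *S1pr4*, *Lpar5* and *S1pr3*, *S1pr1* and *Sphk1*, and *Lpar2* and *Lpar1* were not separated beyond their spread. In vehicle-treated mice alone, the step between *S1pr3* and *S1pr1* was also within the spread. *Lpar6* came first in each group by itself.

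The genes whose pattern over the 6 mice was most like that of *Lpar6*, by Pearson r of log2(FPKM + 1) among 10480 genes with a mean of at least 1 FPKM, included *Tgfbr3*, *Bzrap1*, *Ifnar2* and *Fcgrt*, with r from 0.987 to 0.994. As all of these split the groups, the r mostly restates the group difference. *Tgfbr3*, a co-receptor for TGF-beta, was at 2.68 to 2.92 FPKM with JAK inhibitor and 0.570 to 0.813 with vehicle. *Fcgrt*, the gene of the neonatal Fc receptor, was at 47.8 to 54.5 and 20.8 to 29.1. By deviations from the group means, none of these was among the first 5.

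The enzymes and transporters that supply and remove the ligands were then compared, from lists chosen by role. The list for LPA supply and removal also holds acyltransferases of lysophospholipids in general. Of its 9 tested genes, 3 were higher and 6 lower with JAK inhibitor, with a median log2 difference of -0.11 against -0.0035 over all genes. None passed the adjusted threshold in limma, and 3 of the 9 had an unadjusted p under 0.05, all lower, against 16% of all tested genes in either direction. Among these 3 were the acyltransferase genes *Lpcat2* and *Lpcat3*. *Ppap2a* (now *Plpp1*), a phosphatase that inactivates LPA, was at 3.96, 4.37 and 5.18 FPKM in treated mice and 13.2, 4.78 and 11.6 in vehicle-treated mice, a log2 difference of -0.88 (standard error 0.31, adjusted p = 0.215). Vehicle-treated mouse 2 lay within the treated range. *Lpcat2*, an acyltransferase of lysophospholipids, was at 56.7 to 62.8 FPKM against 67.0 to 96.1, a log2 difference of -0.48 (standard error 0.14, adjusted p = 0.157). *Lpcat3* had a log2 difference of -0.32 (standard error 0.11, adjusted p = 0.203) and its groups did not overlap either. *Agpat1*, which acylates LPA to phosphatidic acid, had 0.28 (standard error 0.13, adjusted p = 0.357). *Enpp2*, the gene of autotaxin, which makes LPA outside cells, was listed at 0 in 3 of the 6 mice and reached 3.34 FPKM in JAK inhibitor-treated mouse 1 alone.

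Of 5 tested genes of S1P removal and transport, 4 were higher and 1 lower, and none passed the adjusted threshold, with 1 at an unadjusted p under 0.05, near the 16% of all tested genes. *Sgpp1*, an S1P phosphatase, was at 44.8, 48.5 and 48.1 FPKM with JAK inhibitor and 40.03, 41.7 and 32.9 with vehicle, a log2 difference of 0.30 (standard error 0.11, adjusted p = 0.242). *Sgpl1*, the S1P lyase, was steady at 42.5 to 46.2 FPKM in all 6 mice. The exporter genes *Spns2* and *Mfsd2b* stayed at or below 1.64 FPKM, and *Abcc1* had a log2 difference of -0.16 (standard error 0.16). Of 18 tested genes of ceramide and sphingomyelin metabolism, 11 were higher and 7 lower, with a median of 0.08 and 0 past the adjusted threshold against 2 at an unadjusted p under 0.05, a share below the 16% of all tested genes. These 2 were *Smpd1*, the acid sphingomyelinase (0.40, standard error 0.13, adjusted p = 0.197), and *Acer3*, a ceramidase (0.27, standard error 0.12, adjusted p = 0.306). *Cers5* and *Degs1* followed with 0.25 and 0.20.

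Downstream of the receptors, 9 of 14 tested genes of G proteins and their effectors were higher and 5 lower, with a median of 0.11 and 0 past the adjusted threshold against 1 at an unadjusted p under 0.05, again a share below 16%. This was *Gna12*, a G protein subunit that couples LPA and S1P receptors to the cytoskeleton, at 12.8, 10.1 and 12.7 FPKM with JAK inhibitor and 19.5, 22.9 and 14.3 with vehicle (log2 difference -0.61, standard error 0.18, adjusted p = 0.164). Its groups did not overlap. *Gnai2*, the main inhibitory G protein of these cells by level, was at 456 to 504 FPKM in all mice, with a log2 difference of -0.0048 (standard error 0.08). *Arhgef1*, *Gna15* and *Rhoa* had differences of 0.18, 0.15 and 0.14. Of 11 genes of receptor uptake and control, 6 were higher and 5 lower, and 0 passed the adjusted threshold against 4 of the 11 at an unadjusted p under 0.05, where 16% of all tested genes were. *Rgs2*, a regulator of G protein signaling, was at 102 to 114 FPKM with JAK inhibitor and 72.9 to 90.2 with vehicle (0.37, standard error 0.10, adjusted p = 0.154). *Grk5*, a receptor kinase, had 0.61 (standard error 0.21, adjusted p = 0.210), and *Adrbk1* (now *Grk2*), a kinase that marks S1PR1 for uptake, had -0.34 (standard error 0.12, adjusted p = 0.215). *Klf2*, a transcription factor known to drive *S1pr1* in lymphocytes, was at 67.9, 56.9 and 49.1 FPKM with JAK inhibitor and 53.5, 30.8 and 33.3 with vehicle (0.58, standard error 0.20, adjusted p = 0.216). Its groups overlapped by vehicle-treated mouse 1, and *S1pr1* itself had a log2 difference of -0.42 (standard error 0.35), which was -0.14 without JAK inhibitor-treated mouse 1, -0.80 without JAK inhibitor-treated mouse 2, -0.23 without vehicle-treated mouse 1 and -0.97 with a pseudocount of 0.1.

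**Figure D5:**
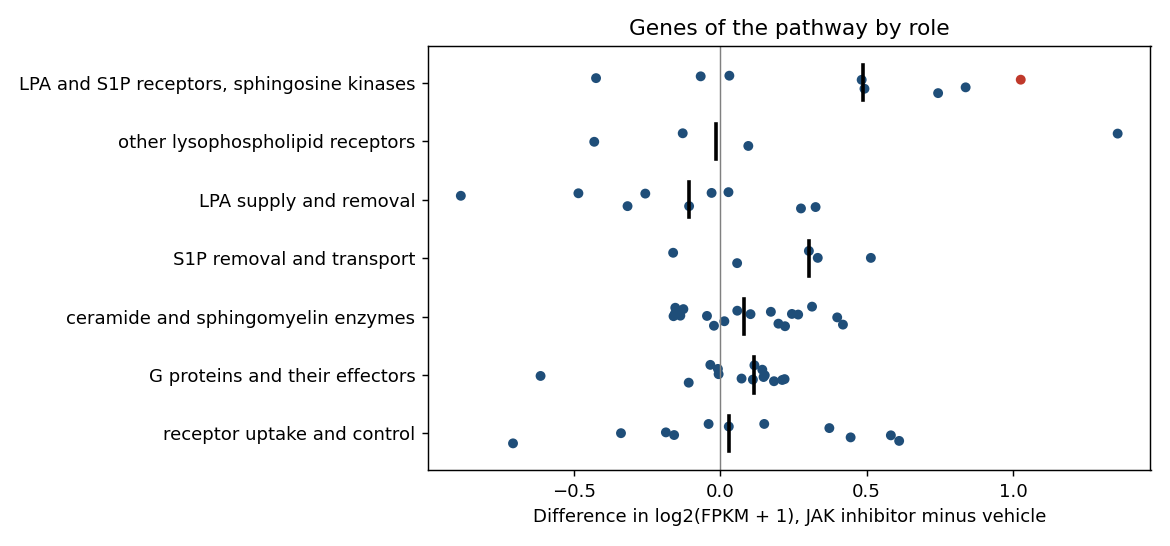
Difference in mean log2(FPKM + 1), JAK inhibitor minus vehicle, of each tested gene by role; each point is 1 gene, black lines are medians, and red marks an adjusted p under 0.05. *Lpar6* at 1.03 is the only red point, and this adjusted p is the value that placed it in the set. The medians of the other lists lie between -0.11 and 0.30.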

How the data were processed

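RNA-Seq values of EGFP+ cells from 3 JAK inhibitor-treated and 3 vehicle-treated mice were analyzed. The authors deposited 1 table of FPKM per mouse; the submitters' processing notes name TopHat2 2.0.13, Bowtie2 2.2.3, SAMtools 0.1.19, Cufflinks 2.2.1 and the build mm10. The annotation and the use of strand are not given in the sources used here. Depth is unknown, as FPKM are no counts; ratios of low values put relative depths within 1.17-fold, roughly. The 11301 genes that reached 1 FPKM in any mouse were compared on log2(FPKM + 1), which understates changes of low genes, with limma 3.58.1 in R 4.3.3 (trend, Benjamini-Hochberg), unpaired. The groups come from the labels, which do not state the mice per sample; the study gives 3 mice per group, so that each library is taken as 1 mouse.

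The members and lists were chosen with earlier results of these data known. The genes named are the 10 members, other receptors above the filter, up to 4 genes of each list by the smallest p, the neighbors of *Lpar6* and the 5 genes most like it, of which 1 is not reported here; *Sgpl1*, *Enpp2*, *Gnai2* and *Nkg7* were named after their values were seen. Alternatives were another pseudocount (0.1), other filters, quantile and median ratio scaling, no trend, library weights, a replicate block and each mouse left out. Positions are from GENCODE M21 and promoter windows from RefSeq (GRCm38.p6), which held 9 of the 10 genes. Python 3.11.15, pandas 2.3.3, NumPy 2.4.6 and matplotlib 3.10.9 were used.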

Additional observations from a re-analysis of the deposited data

How the results depend on the processing

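The log2 difference of *Lpar6* stayed above 0 in all 14 alternatives (0.92 to 1.09). Its adjusted p stayed under 0.05 in 8 of them and was 0.142 without a filter and 0.0776 without the trend. Of 11301 genes, 15 passed the adjusted threshold, and this count was 2 without a filter, 34 with at least 1 FPKM in at least 3 mice, 2 without the trend, 63 with library weights and 1 to 25 with 1 mouse left out. With the replicate block it was 67. Deviations of same-numbered mice had an r of -0.000164 to 0.0542, and those of other pairs had -0.038 to 0.019. With 3 mice per group, these r cannot tell whether the numbers pair mice. The fit without the block was kept because the methods name no pairing. The count of receptor and kinase genes higher with JAK inhibitor was 5 to 7 in every alternative. *S1pr2* changed sign without JAK inhibitor-treated mouse 2 or without vehicle-treated mouse 1, and *Sphk2* without vehicle-treated mouse 3; the cause was not tested. Of 27 named pathway genes, 25 kept their sign in every alternative, the others being *Gpr34* and *Gpr132*, and 0 passed the adjusted threshold in limma in any. When likeness to *Lpar6* was taken from deviations, 0 of the first 5 genes were shared. Levels under 1 FPKM, as for *Lpar1* and *Lpar2* in every mouse and *Sphk1* in most mice, are too low for a fold.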
